A study of Mus musculus with 23 samples.

Results

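The antigen presentation genes described here were 10 mouse genes of the MHC class I and class II pathways, taken by symbol from the quadriceps and epididymal fat count tables: B2m, H2-K1, H2-D1, Tap1, Psmb8, Psmb9, H2-Aa, H2-Ab1, H2-Eb1 and Cd74. All 10 were listed in both tables, among 12831 genes in quadriceps and 16962 in fat, and none was lost to the filter on low counts, which removed no gene from either table. The levels of these genes were compared between mice without tumor, mice bearing KPC tumors and mice bearing KPC IL6KO tumors, within each tissue.

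MHC class I molecules sit on nearly all nucleated cells and show peptides from inside the cell to CD8 T cells. The peptides are cut by the proteasome, in which the interferon-inducible subunits Psmb8 and Psmb9 can replace constitutive subunits, are pumped into the endoplasmic reticulum by the Tap1 and Tap2 transporter, and are bound by a heavy chain such as H2-K1 or H2-D1 paired with B2m. MHC class II molecules, made of an alpha chain (H2-Aa) and a beta chain (H2-Ab1, H2-Eb1), are found mainly on macrophages, dendritic cells and B cells and show ingested peptides to CD4 T cells. Cd74, the invariant chain, escorts class II chains until they meet peptide, and the coactivators Nlrc5 and Ciita drive transcription of class I and class II genes respectively.

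The study asked how Il6 made by pancreatic tumor cells bears on the wasting of muscle and fat. Male C57BL/6 mice (C57BL/6J in the methods), 8 weeks old at surgery, had either a sham operation (no tumor) or an injection into the pancreas of a KPC cell line, derived from a pancreatic tumor of a genetically engineered mouse. KPC cells were 1 clone that received a CRISPR/Cas9 plasmid with a null guide, and KPC IL6KO cells were 1 clone that received a guide to Il6. The host mice carried no edit of Il6, and a difference between the tumors cannot be told apart from a difference between the 2 clones. RNA-seq of quadriceps covered 3 no tumor, 4 KPC and 4 KPC IL6KO libraries (numbered 1 to 4), and RNA-seq of epididymal fat, isolated and sequenced separately, covered 4 libraries in each group (numbered 5 to 8).

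Summed gene counts ran from 19259763 to 74907810 per quadriceps library and from 26306377 to 56308545 per fat library, and the lowest count of any member was 19, for Psmb9 in quadriceps. The 10 genes together took 0.0170% to 0.0614% of the counts in quadriceps and 0.174% to 0.497% in fat. The common coefficient of variation between libraries of a group was 22.7% in quadriceps and 63.5% in fat. Epididymis genes made up 745 to 95088 CPM (counts per 1000000 counts of a TMM-scaled library) of the fat libraries, the antioxidant gene Gpx5 among them. Skeletal muscle fiber genes summed to 9.78 to 284 CPM in no tumor fat, 2.92 to 6.45 CPM in KPC fat and 94.7 to 2593 CPM in KPC IL6KO fat, where the KPC libraries did not overlap the other groups. Il6 was not listed in quadriceps. In fat it had 0, 0, 1 and 4 counts in the no tumor libraries, 136, 185, 65 and 62 in KPC, and 190, 1, 9 and 156 in KPC IL6KO. H2-Ea, the class II alpha partner of H2-Eb1, was listed in neither table.

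Of the 10 genes, 8 lay on chromosome 17 within 1271483 bases (GRCm38, chr17:33996017-35267499), in the MHC itself, and B2m lay at chr2:122147686-122153083 on the plus strand. Cd74 lay outside both regions. Promoter windows of 300 bases, from 250 before to 50 after the transcription start, were taken from RefSeq (GRCm38.p6) for 8 members. H2-Ab1 had no entry, and Cd74 was left out. The 6 windows below are shown because the class I genes, the immunoproteasome genes and the class II genes differed in how they varied with the tumors. Capitals mark matches, on either strand, to the letters GAANNGAAA (shorter form of the interferon-stimulated response element), to its full form with GAAA in place of the first GAA, and to CCAAT (Y box) and TGACG (CRE-like), N being any base.
B2m: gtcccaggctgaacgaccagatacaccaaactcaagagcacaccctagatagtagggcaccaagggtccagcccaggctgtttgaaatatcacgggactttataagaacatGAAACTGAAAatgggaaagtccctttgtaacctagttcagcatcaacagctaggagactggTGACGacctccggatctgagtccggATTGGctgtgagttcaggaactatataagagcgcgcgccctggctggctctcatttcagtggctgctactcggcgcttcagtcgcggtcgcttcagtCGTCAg
H2-K1: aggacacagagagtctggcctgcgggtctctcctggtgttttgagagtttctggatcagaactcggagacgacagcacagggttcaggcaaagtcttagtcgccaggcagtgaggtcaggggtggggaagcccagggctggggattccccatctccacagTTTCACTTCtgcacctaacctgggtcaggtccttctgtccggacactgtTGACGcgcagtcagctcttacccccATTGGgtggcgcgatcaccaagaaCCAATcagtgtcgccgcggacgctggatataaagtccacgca
H2-D1: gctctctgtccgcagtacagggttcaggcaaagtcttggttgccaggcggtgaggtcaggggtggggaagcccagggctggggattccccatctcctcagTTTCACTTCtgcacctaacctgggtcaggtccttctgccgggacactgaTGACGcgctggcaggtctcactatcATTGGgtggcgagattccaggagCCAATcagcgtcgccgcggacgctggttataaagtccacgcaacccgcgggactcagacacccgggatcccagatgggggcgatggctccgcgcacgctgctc
Psmb9: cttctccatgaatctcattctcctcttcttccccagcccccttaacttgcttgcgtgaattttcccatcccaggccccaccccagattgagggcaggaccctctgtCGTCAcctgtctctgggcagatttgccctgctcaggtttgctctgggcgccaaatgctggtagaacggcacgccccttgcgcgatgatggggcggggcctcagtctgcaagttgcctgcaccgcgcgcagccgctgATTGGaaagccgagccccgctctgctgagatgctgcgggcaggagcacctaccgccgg
H2-Aa: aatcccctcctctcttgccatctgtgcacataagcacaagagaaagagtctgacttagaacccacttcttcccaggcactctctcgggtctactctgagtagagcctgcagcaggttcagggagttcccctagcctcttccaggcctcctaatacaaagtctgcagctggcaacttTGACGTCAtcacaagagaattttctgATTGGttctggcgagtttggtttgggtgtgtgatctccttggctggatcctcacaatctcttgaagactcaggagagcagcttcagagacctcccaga
H2-Eb1: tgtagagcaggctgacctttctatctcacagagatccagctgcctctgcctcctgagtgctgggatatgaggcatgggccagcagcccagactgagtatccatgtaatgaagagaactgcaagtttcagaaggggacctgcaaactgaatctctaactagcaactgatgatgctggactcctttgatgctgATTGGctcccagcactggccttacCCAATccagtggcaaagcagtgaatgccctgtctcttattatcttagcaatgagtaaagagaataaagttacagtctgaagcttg
The regions were chr2:122147437-122147736 for B2m on the plus strand, chr17:34000298-34000597 for H2-K1 on the minus strand, chr17:35262844-35263143 for H2-D1 on the plus strand, chr17:34187281-34187580 for Psmb9 on the minus strand, chr17:34287774-34288073 for H2-Aa on the minus strand and chr17:34305617-34305916 for H2-Eb1 on the plus strand.

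The H2-K1 and H2-D1 windows were identical at 214 of 300 aligned bases (71.3%), and shared an unbroken stretch of 47 bases (from -141 in H2-K1 and from -201 in H2-D1, counted from the start) that was in these 2 of 27025 mouse promoter windows alone. Downstream of it both held TTTCACTTC, a match to the shorter interferon element, a form found in 7.56% of windows. The full interferon element was found in B2m (GAAACTGAAA, first base at -139 from the start) and in 3.49% of all windows. CCAAT was in 7 of the 8 member windows and 37.9% of all windows, and TGACG in 6 of 8 and 21.0%. In H2-Aa TGACG matches on the opposite strands overlap, and no other motif matches did in the 8 windows. These counts describe letters in a window only. By the RefSeq starts used for the windows, Tap1 and Psmb9 begin 226 bases apart in opposite directions, so their windows share 275 of 300 bases. In the GENCODE annotation, used for exon lengths and with other starts, their exons overlap by 212 bases on opposite strands. The strand setting of the counting is not given in the sources used here, so how reads in that stretch were counted is not known. The same holds for 498 bases of Psmb8 exons (14.7%) that overlap Gm20496 on the opposite strand. Transcripts of H2-K1 and H2-D1 were 88.6% identical, and 1.55% of the 75-base stretches of H2-K1 and 7.10% of those of H2-D1 also occur in another gene of the family, so a share of their reads could not be assigned with certainty.

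In quadriceps of KPC mice most of the antigen presentation genes were lower than in no tumor mice, with the largest differences for the immunoproteasome subunits Psmb9 and Psmb8 and the class II chain H2-Ab1. By the edgeR quasi-likelihood test (false discovery rate, FDR, at most 0.05 over all genes and a fold change, FC, of at least 1.5), 8 of the 10 genes fell and 0 rose in KPC against no tumor. All genes tested gave 29% called lower and 26.7% called higher in this comparison, which is the background for that count. The median log2 FC was -1.39 over the 10 genes and -0.03 over all genes. Upper-quartile scaling moved the median of all genes by -0.325, which made 69.6% of all calls lower instead of 52%, and called all 10 members lower. In 6 of the 10 genes every KPC library lay below every no tumor library, against 33% of all genes. In bulk tissue, a loss of the cells that carry a gene and less RNA per cell cannot be told apart.

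**Figure D1:**
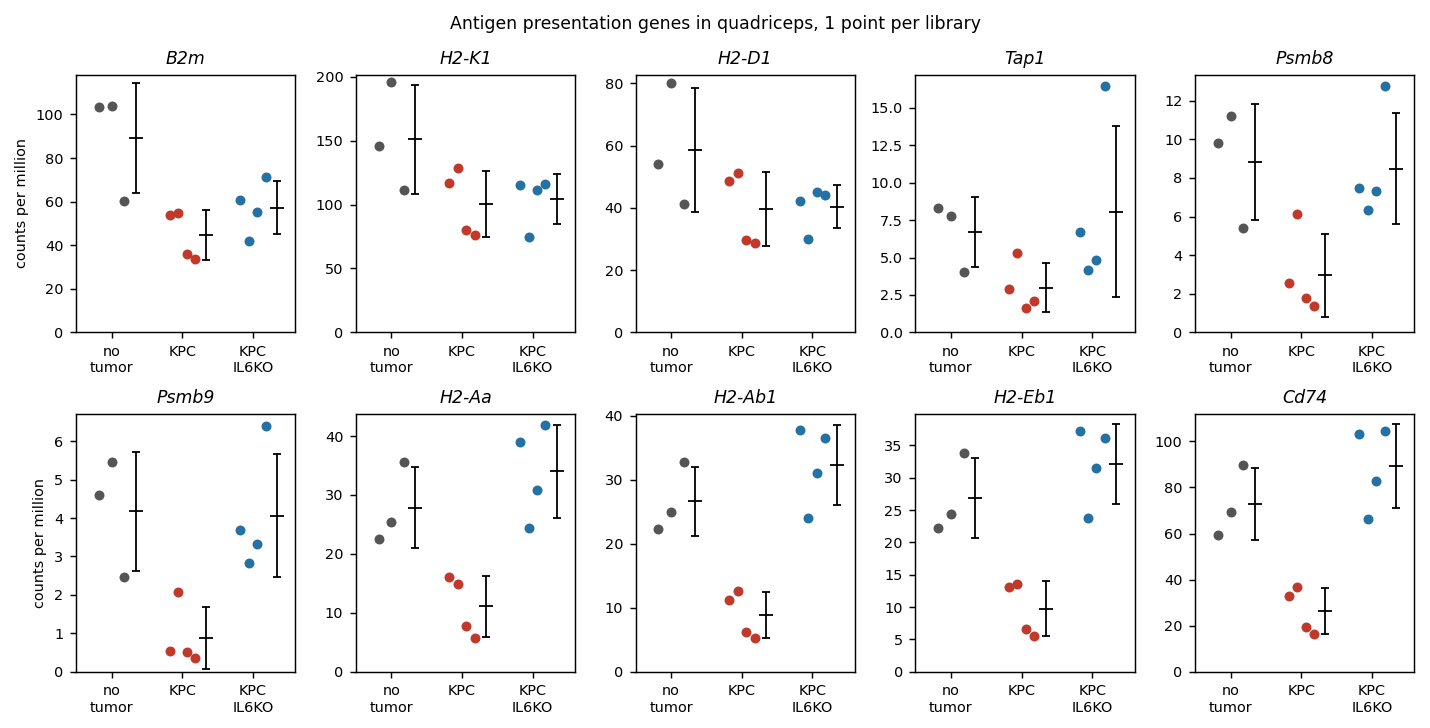
CPM (linear axis from 0) of the 10 genes in quadriceps, 1 point per library, with the mean and SD of each group beside the points (no tumor n = 3, KPC n = 4, KPC IL6KO n = 4). The 4 KPC libraries lie below all other libraries for H2-Aa, H2-Ab1, H2-Eb1, Cd74 and Psmb9, while for H2-K1 and H2-D1 the KPC and KPC IL6KO points cover the same range.

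Among the class I genes, B2m, the light chain of every class I molecule, was the member that fell most clearly. Its level was 104, 104 and 60.2 CPM in the no tumor libraries 1 to 3, 53.9, 55.0, 36.1 and 33.8 CPM in KPC 1 to 4 and 60.9, 41.8, 55.2 and 71.2 CPM in KPC IL6KO 1 to 4. All KPC values were under the lowest no tumor value, and the KPC IL6KO values overlapped both groups. B2m was 2.00-fold lower in KPC than in no tumor (log2 FC -0.998, SE 0.24, edgeR FDR 0.0034). Against KPC IL6KO the log2 FC was -0.36, with a 95% interval of -0.85 to 0.14 (edgeR FDR 0.181).

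H2-K1, a classical heavy chain, stood at 146, 196 and 112 CPM in no tumor, 117, 128, 80.5 and 76.1 CPM in KPC and 115, 74.7, 111 and 116 CPM in KPC IL6KO. The groups overlapped, with no tumor 2 highest of the 11 libraries. H2-K1 fell in KPC against no tumor by 0.59 on the log2 scale, at the edge of both thresholds (SE 0.24, FC just over 1.5, edgeR FDR 0.0436), and lost the call in 12 alternative settings. H2-D1, the other classical heavy chain measured, had 54.2, 80.2 and 41.2 CPM in no tumor, 48.7, 51.2, 29.8 and 28.8 CPM in KPC and 42.3, 30.1, 45.0 and 44.1 CPM in KPC IL6KO. It did not pass, with a log2 FC of -0.56 (SE 0.26, edgeR FDR 0.0739). Against KPC IL6KO neither heavy chain passed, and the intervals of the log2 FC were -0.54 to 0.43 for H2-K1 and -0.56 to 0.50 for H2-D1.

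The class I levels in the muscle libraries moved with adipocyte markers in part. The 6 adipocyte markers, all measured, summed to 606, 1552 and 344 CPM in no tumor 1 to 3, to 527, 746, 195 and 148 CPM in KPC 1 to 4, and to 359, 164, 326 and 215 CPM in KPC IL6KO 1 to 4. The library with the largest sum was also the highest for B2m, H2-K1 and H2-D1, and within KPC the 2 libraries with the larger sums held the higher values of all 3 genes. Within KPC IL6KO the levels followed the sum only in part. Library 2, with the smallest sum, was lowest for all 3 genes. Library 4, with a sum of 215 CPM, had the highest B2m, and its H2-K1 was nearly that of library 1, which had the largest sum. A fit with Adipoq, a gene made by adipocytes, as a covariate was an alternative added after the data were seen. In it B2m fell in KPC against no tumor by 0.65 on the log2 scale (edgeR FDR 0.0188). The log2 FC was -0.21 for H2-K1 and -0.15 for H2-D1, neither called. Adipoq itself ran from 35.8 to 197 CPM in no tumor and from 0.828 to 94.0 CPM in KPC, so the covariate partly follows the groups. The part of adipocytes in the class I values was not tested. The genes whose profile over the 11 quadriceps libraries lay nearest to the mean class I profile were Lipe, Cebpa, Tusc5, Ifi27l2a and Pck1, with root mean square differences of 0.299 to 0.332 in z-scored log2 CPM among 10510 candidates. Lipe is the hormone-sensitive lipase of adipocytes and Cebpa an adipocyte transcription factor.

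Psmb8 and Psmb9, the immunoproteasome subunits beta5i and beta1i, showed larger differences than the class I chains. Psmb9 was at 4.61, 5.47 and 2.46 CPM in no tumor, 0.539, 2.07, 0.524 and 0.358 CPM in KPC and 3.68, 2.84, 3.32 and 6.40 CPM in KPC IL6KO. The KPC libraries were all below the other libraries, with KPC 2 well above the remaining KPC libraries. Psmb9 was 4.83-fold lower in KPC than in no tumor (log2 FC -2.27, SE 0.54, edgeR FDR 0.0029), the largest change among the 10 genes, and 4.64-fold lower than in KPC IL6KO (log2 FC -2.21, SE 0.51, edgeR FDR 0.0024). Psmb8 was at 9.82, 11.2 and 5.43 CPM in no tumor, 2.57, 6.11, 1.80 and 1.37 CPM in KPC and 7.50, 6.35, 7.33 and 12.8 CPM in KPC IL6KO. It was lower in KPC than in no tumor by 1.58 on the log2 scale (SE 0.46, 3.00-fold, edgeR FDR 0.0090), although KPC 2 lay above no tumor 3, and lower than in KPC IL6KO by 1.52 (SE 0.43, edgeR FDR 0.0082) with no overlap.

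Tap1, a subunit of the peptide transporter, had 8.31, 7.80 and 4.05 CPM in no tumor, 2.90, 5.32, 1.62 and 2.13 CPM in KPC and 6.72, 4.16, 4.86 and 16.5 CPM in KPC IL6KO. The KPC libraries were the low ones apart from KPC 2, and KPC IL6KO 4 stood at the top. Against no tumor Tap1 did not pass by the quasi-likelihood test (log2 FC -1.18, SE 0.51, FDR 0.0571) and passed by the edgeR likelihood ratio test (FDR 0.0332) and by DESeq2 (adjusted p 0.0294). Against KPC IL6KO it was lower (log2 FC -1.43, SE 0.48, edgeR FDR 0.0194), a call that was lost without KPC 3 (FDR 0.0534) or without KPC IL6KO 4 (FDR 0.09). KPC 2 was the highest KPC library for Psmb8, Psmb9 and Tap1 alike, and also for the adipocyte sum.

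The class II genes gave the clearest separation of the groups. H2-Ab1, the beta chain of the I-A molecule, stood at 22.4, 24.96 and 32.7 CPM in no tumor, 11.2, 12.6, 6.22 and 5.31 CPM in KPC and 37.8, 24.1, 31.0 and 36.6 CPM in KPC IL6KO. All 4 KPC libraries were lowest, and the no tumor and KPC IL6KO libraries overlapped. H2-Ab1 was 3.01-fold lower in KPC than in no tumor (log2 FC -1.59, SE 0.29, edgeR FDR 4.5e-04) and 3.66-fold lower than in KPC IL6KO (log2 FC -1.87, SE 0.27, edgeR FDR 9.7e-05).

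Cd74, the invariant chain, had 59.5, 69.3 and 89.9 CPM in no tumor, 33.1, 36.9, 19.3 and 16.4 CPM in KPC and 103, 66.4, 83.0 and 104 CPM in KPC IL6KO. The KPC libraries were again below all others. It was 2.76-fold lower in KPC than in no tumor (log2 FC -1.46, SE 0.28, edgeR FDR 6.3e-04). H2-Aa, the I-A alpha chain, was at 22.5, 25.4 and 35.6 CPM in no tumor, 16.0, 14.8, 7.72 and 5.70 CPM in KPC and 39.0, 24.5, 30.8 and 41.9 CPM in KPC IL6KO. H2-Eb1, the I-E beta chain, was at 22.2, 24.5 and 33.9 CPM in no tumor, 13.1, 13.6, 6.68 and 5.48 CPM in KPC and 37.2, 23.7, 31.5 and 36.1 CPM in KPC IL6KO. For both genes the order of the groups was that of Cd74, with KPC 3 and KPC 4 lowest. H2-Aa fell in KPC against no tumor by 1.32 on the log2 scale (SE 0.33, edgeR FDR 0.0039) and H2-Eb1 by 1.46 (SE 0.31, edgeR FDR 0.0012).

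In KPC against KPC IL6KO, 7 of the 10 genes were lower and 0 higher, where 27.3% of all genes were called lower and 26.4% higher, and 6 genes showed no overlap between the groups, against 30.8% of all genes. The 7 genes were Tap1, Psmb8, Psmb9 and the 4 class II genes, whose log2 FC lay between -1.87 and -1.43 apart from Psmb9. B2m, H2-K1 and H2-D1 did not pass. Upper-quartile scaling moved the median of all genes by -0.311, made 69.1% of all calls lower instead of 50.9%, and called B2m as well (log2 FC -0.67, edgeR FDR 0.0232). This comparison and KPC against no tumor share the KPC libraries.

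In KPC IL6KO against no tumor 0 of the 10 genes passed, and 0% of all genes were called by the edgeR quasi-likelihood test. The likelihood ratio test called 0 members (0.195% of all genes higher and 0.546% lower), as did DESeq2 (0.244% and 0.537%), and 0 members were without overlap (7.54% of all genes higher and 8.01% lower). At an unadjusted p under 0.05, B2m and H2-K1 were 2 members on the lower side, where all genes gave 4.72% lower and 2.19% higher. Their log2 FC were -0.64 for B2m (SE 0.24, edgeR FDR 0.578) and -0.53 for H2-K1 (SE 0.24, edgeR FDR 0.696). For the class II genes the log2 FC lay between 0.26 and 0.29, and the 95% interval for Cd74 was -0.31 to 0.90, so a 1.5-fold rise was within what these libraries allow. For Psmb9 the interval was wider, from -1.19 to 1.08.

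**Figure D2:**
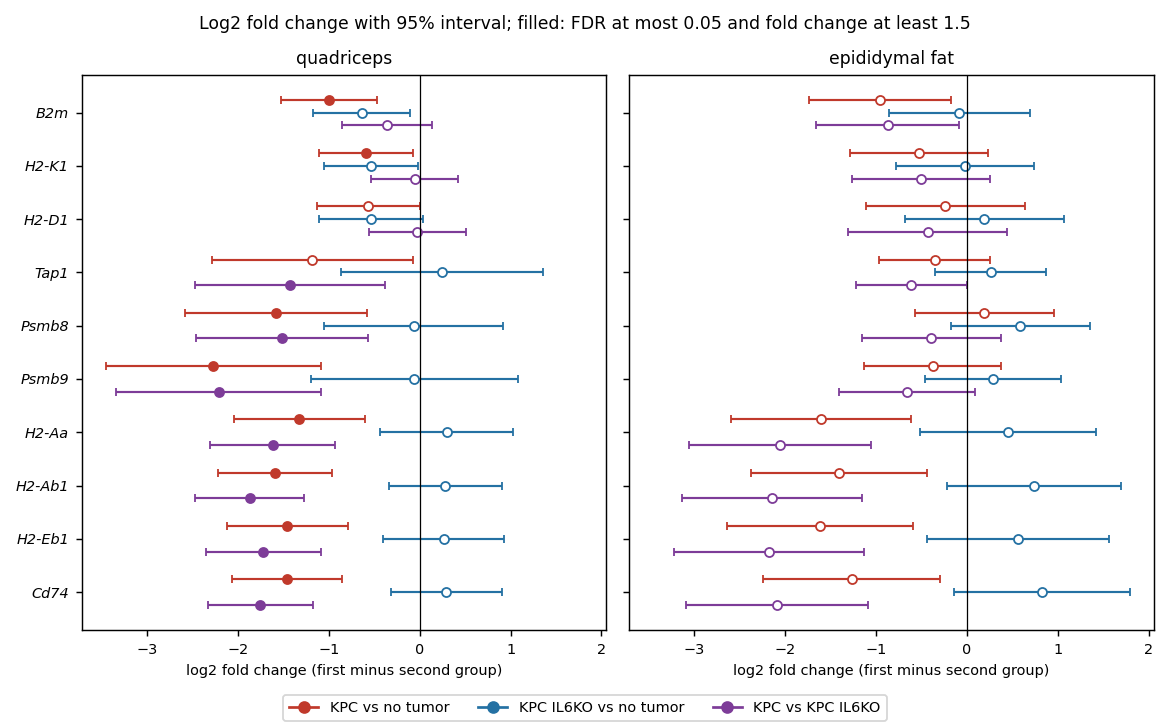
Log2 fold change of each gene (points) with its 95% interval (bars) in the 3 comparisons, quadriceps on the left and epididymal fat on the right, with filled points for genes past FDR 0.05 and a fold change of 1.5 by the edgeR quasi-likelihood test. In quadriceps 8 points are filled for KPC against no tumor and 7 for KPC against KPC IL6KO, and in fat 0 are filled, with the class II genes between -2.18 and -1.27 in both comparisons of KPC.

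Related genes of the same pathways were counted from lists. The background for these counts in quadriceps, KPC against no tumor, is 29% of all genes called lower and 26.7% called higher. Of 9 further class I heavy chain and class I-like genes listed in quadriceps (21 in the list), 5 fell in KPC against no tumor and 0 rose. They were the lipid-presenting Cd1d1 (log2 FC -2.71, edgeR FDR 0.0017), H2-Q10 (-2.56), H2-T24 (-1.93), H2-M3 (-1.11) and H2-Q4 (-0.66, edgeR FDR 0.0459). H2-Q4 had the highest level of the list, at 23.9 CPM in no tumor and 15.1 CPM in KPC. Cd1d1 and H2-Q10 were also low in KPC IL6KO, at 1.39 and 1.43 CPM against 9.50 and 13.99 CPM in no tumor. In that comparison neither passed by the edgeR quasi-likelihood test, and both were called lower by the likelihood ratio test.

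The proteasome genes went in opposite directions according to subunit. The inducible subunit Psmb10 and the activator subunits Psme1, Psme2 and Psme2b all fell in KPC against no tumor, by 1.72, 1.42, 0.74 and 0.90 on the log2 scale. All 3 constitutive catalytic subunits rose, Psmb5 by 1.52, Psmb6 by 1.08 and Psmb7 by 1.28 (edgeR FDR at most 0.0003). Psmb5 stood at 77.8, 72.9 and 78.6 CPM in no tumor, 197, 176, 337 and 168 CPM in KPC and 82.3, 89.5, 87.5 and 82.8 CPM in KPC IL6KO. Every KPC library was more than 1.5-fold above the other libraries. Per exon length (CPM per kilobase of exon, RPKM), Psmb8 was 3.25%, 3.94% and 1.80% of the Psmb8 and Psmb5 sum in no tumor, 0.346%, 0.914%, 0.142% and 0.218% in KPC and 2.37%, 1.85%, 2.18% and 3.93% in KPC IL6KO. Psmb10 was 12.2% to 14.7% of its pair with Psmb7 in no tumor, 1.09% to 3.06% in KPC and 10.1% to 11.9% in KPC IL6KO. The size of these shares depends on the exon lengths used (3381 bases for Psmb8 and 899 for Psmb5), which were the same in all groups.

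**Figure D3:**
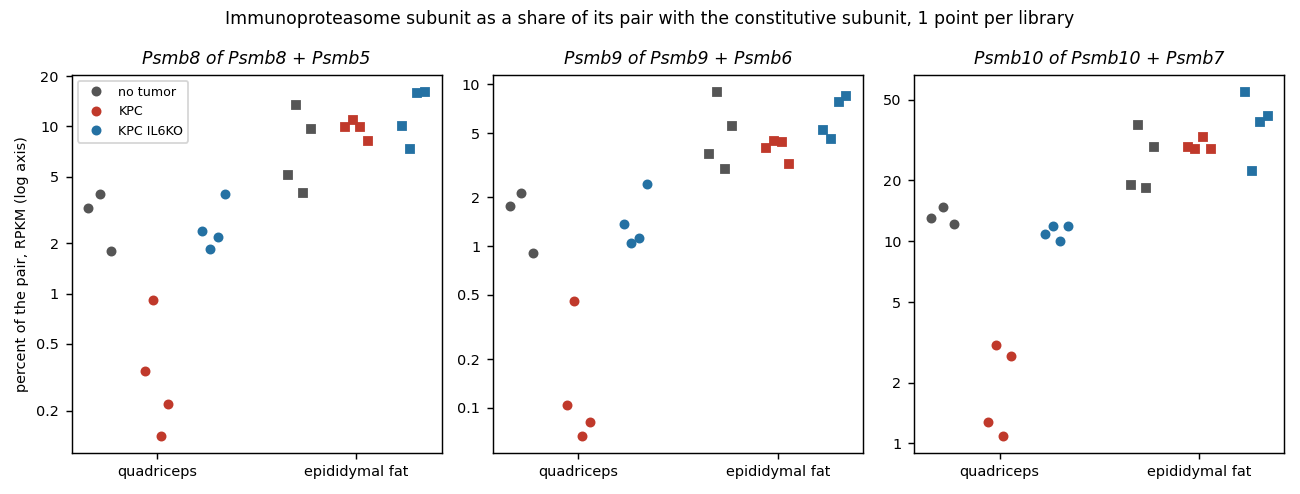
Share of each inducible subunit in the sum with its constitutive counterpart (percent of RPKM, log axis), 1 point per library, circles for quadriceps and squares for fat, colored by group. For Psmb8 the 4 KPC quadriceps libraries lie at 0.142% to 0.914%, under all other quadriceps libraries, while the KPC fat libraries, at 8.16% to 10.9%, lie inside the range of the no tumor fat libraries.

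Peptide loading genes were mixed. Of 9 besides Tap1, Tap2 fell (log2 FC -1.13, edgeR FDR 0.0020), while the peptidase Tpp2 and the chaperone Canx rose, by 1.69 and 1.21. Calr, the most abundant of them, had 137 CPM in no tumor and 168 CPM in KPC (log2 FC 0.29, edgeR FDR 0.0897). H2-DMa and H2-DMb1, which exchange peptide on class II and were the only other class II chain genes of the list measured in quadriceps (2 of 8), fell by 1.46 and 1.79. Among 7 class II processing genes, the thiol reductase Ifi30 rose by 3.64, the protease Ctsl by 2.65 and the ubiquitin ligase March8 by 0.59, while Cd209a, a surface lectin, fell by 2.36 and the protease Lgmn by 0.61. Ctsl is also known as a protease of wasting muscle.

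Of 9 transcription regulators of MHC genes, 4 fell in KPC against no tumor and 0 rose. Of all genes 29% fell and 26.7% rose, which is the background for all counts of this comparison given here. Ciita was at 0.97, 1.25 and 1.23 CPM in no tumor, 0.169, 0.394, 0.18 and 0.151 CPM in KPC and 1.65, 1.23, 1.43 and 1.59 CPM in KPC IL6KO. The KPC libraries were far under all others. Ciita fell by 2.35 on the log2 scale against no tumor (SE 0.33, edgeR FDR 7.5e-05) and was lower than in KPC IL6KO by 2.71 (SE 0.31), Nlrc5 fell by 1.60 (SE 0.56, edgeR FDR 0.0245), and Rfxank and Nfyb by 0.64 each. Nfyc, with the highest level at 36.3 CPM in no tumor, was at 38.7 CPM in KPC. Of 15 measured interferon signaling genes, 8 fell and 2 rose. Among those named by the rule, Irf7 fell by 1.74 and Ifngr2, a chain of the interferon gamma receptor, 2.83-fold, while Jak1, the most abundant, rose by 0.62. Ifng itself was not listed. Of 4 costimulation genes, 3 fell, among them the checkpoint ligand Cd274 by 1.69. In KPC IL6KO against no tumor 0 genes of these lists were called by the edgeR quasi-likelihood test, and Cd1d1 and H2-Q10 were the 2 with an unadjusted p under 0.05 or a likelihood ratio call.

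Markers of cells that carry class II were read beside these values, where 29% of all genes fell and 26.7% rose in KPC against no tumor. Of 11 macrophage markers, all measured, Cd68 rose in KPC against no tumor by 3.22 on the log2 scale, Adgre1 fell by 1.54 and Mrc1 by 0.96. The complement genes C1qa, C1qb and C1qc did not pass. Their group means were 12.1 to 15.5 CPM in KPC and 15.7 to 16.4 CPM in no tumor. Over single libraries, C1qa ran from 4.61 to 24.1 CPM in KPC and from 13.2 to 19.7 CPM in no tumor. The macrophage sum was 125 to 181 CPM in no tumor, 54.7 to 219 CPM in KPC and 130 to 201 CPM in KPC IL6KO, so the groups overlapped. The 4 class II members summed to 102% to 110% of it in no tumor, 24.7% to 68.3% in KPC and 107% to 135% in KPC IL6KO. Of the 11 markers 8 had a log2 FC below 0 (median -0.37), and Cd68 alone gave 79.5 of the 162 CPM in KPC 3. Without Cd68 the share was 104% to 113% in no tumor, 38.1% to 71.3% in KPC and 109% to 137% in KPC IL6KO, with KPC 3 at 48.5%. Of 10 dendritic cell markers 3 were measured, and Cd209a and Itgax fell in KPC, by 2.36 and 2.10. Of 8 B cell markers only Cd79b was measured, and fell by 1.89 from 0.467 CPM, and none of 14 T and NK cell markers was listed. Neutrophil markers rose (4 of 4 measured, summing to at most 0.779 CPM in no tumor and 4.497 to 21.8 CPM in KPC) and fibroblast markers fell (6 of 6). The part of these cells in the class II values was not tested.

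**Figure D4:**
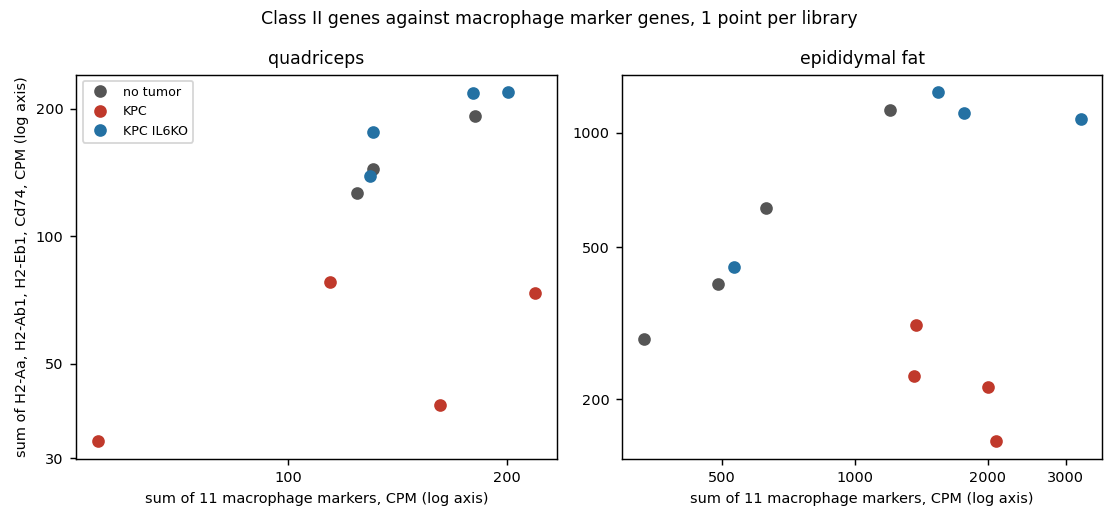
Summed CPM of H2-Aa, H2-Ab1, H2-Eb1 and Cd74 (vertical, log axis) against the summed CPM of 11 macrophage markers (horizontal, log axis), 1 point per library, quadriceps left and fat right. KPC libraries lie lowest in quadriceps and, apart from an overlap with no tumor 7, in fat, while their macrophage sums overlap those of the other groups in quadriceps and lie above no tumor in fat, with class II sums of 32.9 to 78.0 CPM in quadriceps and 155 to 313 CPM in fat.

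Over the 11 quadriceps libraries, the genes nearest to the mean class II profile were Csf2ra, Arrb2, Homer1, Hif1an and Ptprc (root mean square difference 0.158 to 0.231). Ptprc encodes the leukocyte marker CD45 and Csf2ra the GM-CSF receptor alpha chain. The class II members themselves differed from their own mean profile by 0.0306 for H2-Eb1 to 0.0881 for H2-Aa, and B2m differed from the class I mean by 0.278.

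Per length, the order of the 10 genes in no tumor quadriceps was B2m (104 ± 29.1 RPKM, SD, n = 3), H2-K1 (51.4 ± 14.4), Cd74 (43.4 ± 9.25), H2-D1 (22.7 ± 7.70), H2-Eb1 (13.8 ± 3.18), H2-Ab1 (10.4 ± 2.10), H2-Aa (7.33 ± 1.81), Psmb8 (2.61 ± 0.894), Tap1 (1.23 ± 0.425) and Psmb9 (1.14 ± 0.423). H2-K1 and Cd74 did not differ beyond their spread, nor did Tap1 and Psmb9. In CPM the means of H2-Eb1, H2-Ab1 and H2-Aa were nearly equal, at 26.8, 26.7 and 27.8. Their order in RPKM thus follows the exon lengths used, 1944, 2568 and 3798 bases. The longest coding transcripts of these genes had 1669, 1212 and 1128 bases, so their order depends on the length chosen. In KPC IL6KO muscle Cd74 (53.2 ± 10.8 RPKM, n = 4) stood above H2-K1 (35.5 ± 6.75), and in KPC it was at 15.7 ± 5.99 RPKM against 34.2 ± 8.85 for H2-K1. In CPM the KPC IL6KO mean of Cd74 (89.3) was below that of H2-K1 (104). The order of these genes in KPC IL6KO thus depends on the exon lengths used, 1679 bases for Cd74 and 2938 for H2-K1.

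In epididymal fat the class II genes again had their lowest group means in KPC, but the spread between libraries was larger and 0 of the 10 genes passed the edgeR quasi-likelihood test in any comparison, as did 0% of all genes. In KPC against no tumor, 5 members had an unadjusted p under 0.05 and all were lower (5.9% of all genes were lower at that level), and 2 were called lower by the likelihood ratio test (0.855% of all genes) and 2 by DESeq2 (1.31%). The median log2 FC was -0.74 for the 10 genes and -0.10 for all genes.

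**Figure D5:**
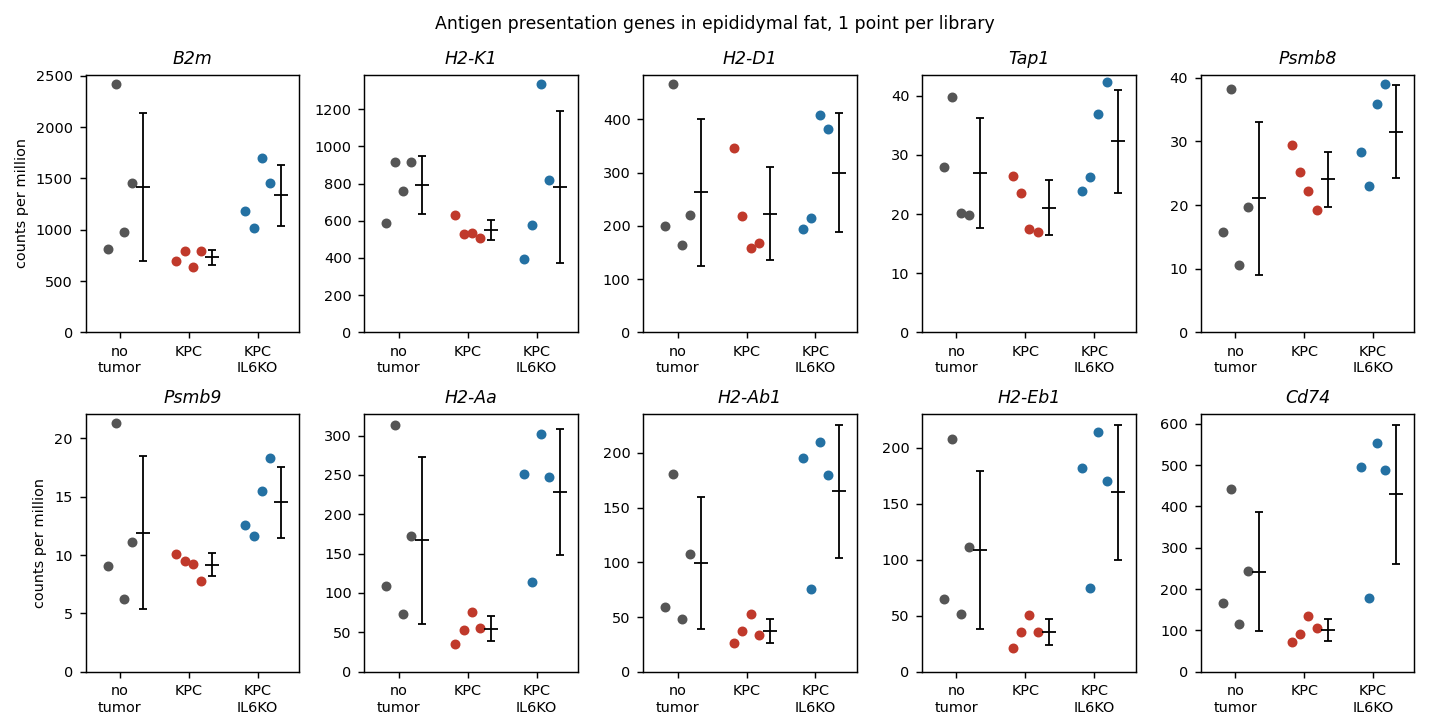
CPM (linear axis from 0) of the 10 genes in epididymal fat, 1 point per library, with the mean and SD of each group of 4. No tumor 6 is the highest no tumor library for all 10 genes but H2-K1, and for the 4 class II genes every KPC point lies under every KPC IL6KO point.

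H2-Aa in fat was at 109, 314, 72.9 and 171.9 CPM in no tumor 5 to 8, 35.8, 52.4, 75.7 and 55.2 CPM in KPC and 251, 114, 302 and 247 CPM in KPC IL6KO. KPC was below KPC IL6KO in every library and overlapped no tumor through no tumor 7. The log2 FC of KPC against no tumor was -1.61 (SE 0.45, edgeR quasi-likelihood FDR 0.238, likelihood ratio FDR 0.0378). H2-Eb1 had 65.2, 208, 51.3 and 112 CPM in no tumor, 21.2, 35.2, 50.3 and 35.2 CPM in KPC and 182, 74.4, 214 and 171 CPM in KPC IL6KO. Its KPC libraries lay under all others (log2 FC -1.62, SE 0.47, edgeR quasi-likelihood FDR 0.247, likelihood ratio FDR 0.0419).

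H2-Ab1 in fat was at 59.4, 181, 48.4 and 107 CPM in no tumor, 26.3, 37.01, 52.5 and 33.6 CPM in KPC and 195, 75.95, 209.8 and 179 CPM in KPC IL6KO. Cd74 was at 167, 443, 115 and 244 CPM in no tumor, 72.0, 90.4, 134 and 106 CPM in KPC and 496, 179.6, 553 and 488 CPM in KPC IL6KO. For both, KPC libraries overlapped no tumor 7 and lay under every KPC IL6KO library. The log2 FC against no tumor was -1.41 for H2-Ab1 (SE 0.44) and -1.27 for Cd74 (SE 0.44), and neither passed by any of the 3 tests.

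KPC against KPC IL6KO gave the largest class II differences in fat, a log2 FC of -2.06 for H2-Aa, -2.15 for H2-Ab1, -2.18 for H2-Eb1 and -2.09 for Cd74 (SE 0.45 to 0.48). By the edgeR quasi-likelihood test their unadjusted p lay between 5.6e-04 and 8.45e-04 and their FDR between 0.535 and 0.558, whereas all 4 were called lower by the likelihood ratio test (edgeR FDR 0.0061 to 0.0121, 0.348% of all genes called lower) and by DESeq2 (adjusted p 0.0029 to 0.0060, 0.628% of all genes). In total 6 members had an unadjusted p under 0.05 on the lower side (5.48% of all genes), and 6 showed no overlap (3.69% of all genes). The likelihood ratio calls depended on individual libraries: 0 members were called without KPC 5, KPC 6, KPC 8 or KPC IL6KO 7, 2 without KPC IL6KO 8, and 0 with Gpx5 as a covariate. In that fit the log2 FC were smaller, at -1.13 for H2-Aa, -1.17 for H2-Ab1, -1.19 for H2-Eb1 and -1.10 for Cd74 (edgeR likelihood ratio FDR 0.146 to 0.277).

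Class II levels in fat split with Gpx5, an epididymis gene. The 4 KPC libraries, no tumor 5, no tumor 7 and KPC IL6KO 6 held 21347 to 54957 CPM of it, and the remaining 5 libraries 4.69 to 85.8 CPM. In both other groups the libraries high in Gpx5 were those lowest in class II. Crisp1, another epididymis gene, did not split in this way. It was at 1305, 12023, 5754 and 14517 CPM in no tumor 5 to 8. In KPC it ran from 156 to 5328 CPM, and in KPC IL6KO 5 to 8 it was at 621, 414, 12122 and 9432 CPM. Gpx5, as a split or a covariate, thus does not stand for all epididymis RNA. Among libraries high in Gpx5 the 4 class II genes summed to 155 to 313 CPM in KPC, to 399.85 and 288 CPM in no tumor 5 and 7, and to 444 CPM in KPC IL6KO 6, so KPC and no tumor overlapped. Among those low in Gpx5 they summed to 1146 and 635 CPM in no tumor 6 and 8 and to 1085 to 1279 CPM in KPC IL6KO. Against no tumor, the covariate fit gave a log2 FC of -0.93 for H2-Aa, -0.71 for H2-Ab1, -0.91 for H2-Eb1 and -0.60 for Cd74, none of them called by the edgeR quasi-likelihood test (FDR 0.194 to 0.365).

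B2m in fat was at 808, 2424, 981 and 1458 CPM in no tumor, 694, 795, 640.1 and 792 CPM in KPC and 1184, 1021, 1695 and 1452 CPM in KPC IL6KO. The KPC libraries lay below all others, B2m being 1 of 2 members without overlap against no tumor (4.39% of all genes), and no tumor 6 stood highest. The log2 FC of KPC against no tumor was -0.96 (SE 0.36, p 0.0214, edgeR FDR 0.337) and against KPC IL6KO -0.87 (SE 0.36, edgeR FDR 0.734). H2-K1 was at 585, 913, 762 and 915 CPM in no tumor, 630.5, 528, 537 and 508 CPM in KPC and 394, 575, 1337 and 816 CPM in KPC IL6KO. H2-D1 ranged from 163 to 467 CPM in no tumor, from 158 to 347 CPM in KPC and from 194 to 409 CPM in KPC IL6KO. The groups overlapped for both heavy chains, and the log2 FC of KPC against no tumor was -0.53 for H2-K1 (95% interval -1.29 to 0.23) and -0.24 for H2-D1 (-1.11 to 0.64).

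The immunoproteasome genes in fat did not show the pattern of muscle. Psmb8 was at 15.8, 38.2, 10.6 and 19.6 CPM in no tumor, 29.4, 25.3, 22.2 and 19.2 CPM in KPC and 28.3, 23.04, 35.9 and 39.0 CPM in KPC IL6KO. KPC lay inside the no tumor range (log2 FC 0.19, SE 0.35, edgeR FDR 0.839). Psmb9 ran from 6.21 to 21.3 CPM in no tumor, from 7.77 to 10.1 CPM in KPC and from 11.6 to 18.3 CPM in KPC IL6KO (log2 FC of KPC against no tumor -0.38, SE 0.34). Tap1 ran from 19.9 to 39.8 CPM in no tumor, from 16.9 to 26.4 CPM in KPC and from 23.9 to 42.3 CPM in KPC IL6KO (log2 FC -0.35, SE 0.28). All 3 overlapped between KPC and no tumor.

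In KPC IL6KO against no tumor in fat, 0 members passed the edgeR quasi-likelihood test (0% of all genes), the likelihood ratio test (1.23% of all genes higher, 0% lower) or DESeq2 (1.7% higher, 0.0242% lower). At an unadjusted p under 0.05 there were 0 members (1.17% of all genes were lower and 8.17% higher at that level), and 0 were without overlap (0.489% of all genes lower, 1.52% higher). The class II log2 FC were 0.45 for H2-Aa, 0.74 for H2-Ab1, 0.56 for H2-Eb1 and 0.82 for Cd74 (95% interval of the last -0.14 to 1.79). KPC IL6KO 6 was the lowest of its group for all 4.

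No gene of the pathway lists passed the edgeR quasi-likelihood test in fat. The smallest p in KPC against no tumor among class II processing genes belonged to the proteases Lgmn (117.5 CPM in no tumor and 344 CPM in KPC, log2 FC 1.55, p 3.6e-04, edgeR FDR 0.168) and Ctss (58.7 and 225 CPM, log2 FC 1.94, p 0.0028), both called higher by the likelihood ratio test and both without overlap. Ciita was at 3.77, 8.41, 2.46 and 4.60 CPM in no tumor, 0.847, 3.32, 3.34 and 2.44 CPM in KPC and 11.7, 3.33, 10.4 and 13.6 CPM in KPC IL6KO. Its groups overlapped, with a log2 FC of -0.95 (SE 0.56) against no tumor and -1.97 (SE 0.57, p 0.0053, edgeR FDR 0.664) against KPC IL6KO. Nlrc5 had a mean of 20.2 CPM in no tumor (7.53 to 43.3 CPM over the libraries) and 13.5 CPM in KPC (10.5 to 16.2 CPM). Its KPC libraries lay inside the no tumor range. Besides the members, the chaperone list had the class II-like H2-Ob (log2 FC -1.23, edgeR quasi-likelihood p 0.0392). The heavy chain, loading and proteasome lists had no gene other than members with an unadjusted p under 0.05. The 5 genes nearest to the class II profile over the 12 fat libraries were Mgl2, Fgf11, Flt3l, Xpnpep2 and Ciita (root mean square difference 0.252 to 0.340), and those nearest to the mean class I profile were Boc, Txnrd2, Mgll, Cped1 and Gbp4 (0.223 to 0.307). B2m, H2-K1 and H2-D1 themselves lay farther from that mean, at 0.455 to 0.469.

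Macrophage marker sums in fat were large in KPC, where class II sums were small. They ran from 334 to 1198 CPM in no tumor, from 1363 to 2083 CPM in KPC and from 533 to 3239 CPM in KPC IL6KO, so that KPC and no tumor did not overlap. Cd68 was at 20.6 CPM in no tumor and 72.4 CPM in KPC (log2 FC 1.81, p 0.0022, edgeR FDR 0.225), and 3 of the 11 markers were called higher by the likelihood ratio test (1.58% of all genes), while 7 had an unadjusted p under 0.05 on the higher side (6.26% of all genes). The class II sum was 81.5% to 101% of the macrophage sum in no tumor, 7.45% to 22.7% in KPC and 33.5% to 83.2% in KPC IL6KO. The 10 dendritic cell markers, all measured, summed to 38.2 to 66.4 CPM in no tumor, 40.4 to 55.1 CPM in KPC and 54.4 to 81.9 CPM in KPC IL6KO. In KPC against KPC IL6KO, 6 of them had an unadjusted p under 0.05, among them Xcr1 (0.210 CPM against 1.48 CPM) and Itgax (4.48 CPM against 13.2 CPM). At that level 5.48% of all genes were lower and 0.778% higher. B cell markers summed to at most 17.4 CPM in any library. T and NK cell markers, 10 of 14 measured, ranged widely, from 12.4 to 657 CPM in no tumor, from 95.9 to 162 CPM in KPC and from 11.4 to 489 CPM in KPC IL6KO. The 6 adipocyte markers, which define the tissue, summed to 1039 to 19166 CPM in no tumor, 1681 to 8779 CPM in KPC and 2820 to 11348 CPM in KPC IL6KO, highest in no tumor 6. Muscle fiber genes, given above, also differed between the fat libraries, and the part of these cell types in the class II values was not tested beyond the Gpx5 covariate.

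The difference between the tissues was tested in 1 fit over all 23 libraries and the 12599 genes in both tables, as the quadriceps log2 FC minus the fat log2 FC. That fit used 1 dispersion per gene for both tissues, although the common coefficient of variation was 22.7% in quadriceps and 63.5% in fat. Its SE and FDR rest on that pooled spread. For KPC against no tumor, 2 of the 10 genes passed, where 38.6% of all genes did. They were Psmb8 (difference -1.87, SE 0.62, edgeR FDR 0.0217) and Psmb9 (difference -1.99, SE 0.67, edgeR FDR 0.0254). The call depended on the muscle libraries, since 0 genes passed without no tumor 2 and 1 without no tumor 1, KPC 1 or KPC 3. For Tap1 the difference was -0.93 (SE 0.61, edgeR FDR 0.233), and for the 4 class II genes it lay between -0.30 and 0.17 (SE 0.57 to 0.61). For KPC IL6KO against no tumor 0 of the 10 passed, and 0% of all genes (1003 had an unadjusted p under 0.05). RNA of the tissues was isolated and sequenced separately, so levels were not tested across them. The methods give 4 animals per group as the source of the quadriceps and fat RNA, without saying whether each mouse gave both tissues. The fit treated all libraries as independent. In no tumor fat B2m stood at 1649 ± 843 RPKM (SD, n = 4), H2-K1 at 270.2 ± 53.2, Cd74 at 144 ± 85.8 and Psmb9 at 3.26 ± 1.80.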

How the data were processed

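The measurements were bulk RNA-seq of quadriceps (11 libraries) and epididymal fat (12 libraries), deposited by the authors as raw read counts per gene, 1 table for each tissue. Per the submitters' processing notes the tools were FastQC, STAR, featureCounts 1.5.1 (Subread) and edgeR 3.12.1 on mouse build mm10. The strand setting and any filter applied before deposit are not given in the sources used here, and the labels and the methods name different library kits. 1 further sham muscle library, dropped by the authors, was not analysed here. Groups came from the GEO labels, and nothing in the labels pairs libraries across groups by animal. Columns left unused numbered 0.

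The counts were tested within each tissue in R 4.3.3 with edgeR 4.0.16 (TMM scaling, filterByExpr, glmQLFit and glmQLFTest over all 3 groups, Benjamini-Hochberg over all genes). CPM used TMM-scaled library sizes, log2 CPM used a prior count of 2, and intervals are 95%. RPKM divided by the length of the union of all exons annotated for a gene. No library repeated another, since within each group counts of any pair of libraries differed by a chi-square of at least 28.9 for each degree of freedom. Related and marker gene lists are textbook lists. The members and the lists were chosen with earlier results of these data known. Named genes were the 10 members, for each list its most abundant gene and up to 3 with the largest change among those called (up to 2 with the smallest p where none was), and the 5 genes nearest in profile whose log2 CPM averaged 1 or more. A gene that this rule named is not reported here. DESeq2 1.42.0, the edgeR likelihood ratio test, other scalings and filters, fits of 2 groups, a replicate block, leaving out each library, and covariates for Adipoq (quadriceps) and Gpx5 (fat) were alternatives. The procedure was tested on simulated counts. Promoter windows and motifs were read with Python 3.11.15, and figures drawn with matplotlib 3.10.9. Nothing states that libraries of a group came from separate cages or batches, so p-values measure only the spread between these libraries.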

Additional observations from a re-analysis of the deposited data

Results flagged for a closer look

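In 50 groups of 4 libraries tested for a value far from the rest (10 genes, 5 groups), 2 had a gap to the nearest library above Dixon's 95% critical share of the group's range, where chance alone flags about 1 group in 20. H2-K1 in quadriceps of KPC IL6KO 2 stood at 74.7 CPM, under 111 to 116 CPM in the other 3 libraries, a gap of 0.888 of the range. Psmb9 in quadriceps of KPC 2 stood at 2.07 CPM, above 0.358 to 0.539 CPM in the other 3 libraries, a gap of 0.894 of the range.

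The change in KPC against no tumor differed between the tissues for 2 genes by the interaction test of edgeR: Psmb8 by -1.87 (log2, quadriceps minus fat, FDR 0.0217) and Psmb9 by -1.99 (FDR 0.0254). Of all genes 38.6% passed this test, and both calls were lost without quadriceps no tumor 2. Both were lower in 4 of 4 KPC quadriceps libraries than the no tumor mean, and both overlapped between the groups in fat.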

How the results depend on the processing

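In quadriceps, 8 of the 10 genes were called lower in KPC against no tumor, 7 in KPC against KPC IL6KO and 0 in KPC IL6KO against no tumor, and over all alternatives these counts ran from 7 to 10, from 6 to 8 and at 0. H2-K1 lost its call against no tumor in 12 of 21 alternatives (FDR 0.00575 to 0.305 over them). In fat, 0 genes were called by the quasi-likelihood test, 2 in KPC against no tumor by DESeq2 and 2 by the likelihood ratio test, and 4 and 4 in KPC against KPC IL6KO. With a Gpx5 covariate the likelihood ratio test called 0. Leaving out 1 library gave 0 to 3 called against no tumor and 0 to 4 against KPC IL6KO over both edgeR tests. For the difference between tissues in KPC, 2 genes were called, and 0 to 2 without 1 library.

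Replicate numbers appear in all groups. Same-numbered libraries correlated from -0.155 to 0.265 in quadriceps (2 of 10 pairs over 0.1) and from -0.539 to 0.650 in fat (7 of 12). Their median was 0.058 in quadriceps and 0.173 in fat, against -0.031 and -0.126 for pairs with different numbers. With so few libraries in a group, these correlations cannot decide whether the number marks a shared block. With a replicate block in quadriceps, H2-K1 against no tumor was -0.56 (log2 FC, edgeR FDR 0.0763, call lost) and Tap1 -1.33 (FDR 0.0285, call gained). In KPC IL6KO against no tumor the block turned Psmb8 to 0.039 and Psmb9 to 0.030 in quadriceps and B2m to 0.014 in fat.

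Other changes of sign concerned values that passed no threshold. A covariate for Adipoq in quadriceps gave Psmb8 0.61 and Psmb9 0.73 in KPC IL6KO against no tumor, and H2-D1 0.0027 in KPC against KPC IL6KO. A covariate for Gpx5 in fat, with either edgeR test, gave H2-D1 0.15 in KPC against no tumor, and H2-D1 0.14 and Psmb8 0.18 against KPC IL6KO. In limma voom the difference between tissues was -0.019 for H2-Aa and -0.11 for H2-Eb1 in KPC, and -0.31 for Tap1 in KPC IL6KO. Without 1 library, quadriceps values in KPC IL6KO against no tumor ran from -0.37 to 0.46 (Tap1), -0.33 to 0.14 (Psmb8) and -0.36 to 0.18 (Psmb9), and in KPC against KPC IL6KO from -0.20 to 0.056 (H2-K1) and -0.17 to 0.10 (H2-D1). In fat they ran in KPC against no tumor from -0.54 to 0.19 (H2-D1), -0.031 to 0.65 (Psmb8) and -0.59 to 0.058 (Psmb9), and in KPC IL6KO against no tumor from -0.28 to 0.31 (B2m), -0.43 to 0.20 (H2-K1) and -0.0047 to 0.62 (H2-D1). The difference between tissues ran in KPC from -0.53 to 0.067 (B2m), -0.34 to 0.071 (H2-K1), -0.33 to 0.42 (H2-Aa) and -0.47 to 0.30 (H2-Eb1), and in KPC IL6KO from -0.60 to 0.23 (Tap1) and -0.60 to 0.11 (H2-Aa). The Adipoq covariate, the Gpx5 covariate with the likelihood ratio test and the likelihood ratio test without 1 library were chosen after seeing the data. The cause of these changes was not tested. Psmb9 in quadriceps had the lowest count of any member, 19, and kept its call in both KPC comparisons in all 21 alternatives.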

Other observations

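Neutrophil and fibroblast markers also differed in quadriceps of KPC mice. Of 8 neutrophil markers, 4 were measured, and all 4 rose in KPC against no tumor by the edgeR quasi-likelihood test, with a median log2 FC of 5.01. By that test 26.7% of all genes rose and 29% fell. In KPC IL6KO 0 of the 4 passed that test, 3 had an unadjusted p under 0.05 and 2 were called higher by the likelihood ratio test. At that p 2.19% of all genes were higher and 4.72% lower, and the likelihood ratio test called 0.195% higher. The median log2 FC of the 4 markers in KPC IL6KO was 2.11. The 6 fibroblast markers, collagens Col1a1, Col1a2 and Col3a1 among them, all fell in KPC, and their sum was 1215 to 1333 CPM in no tumor, 174 to 290.4 CPM in KPC and 627.5 to 991 CPM in KPC IL6KO.

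In fat, the 6 measured neutrophil markers each had an unadjusted p under 0.05 in KPC against no tumor, and 4 were called higher by the likelihood ratio test, where 6.26% and 1.58% of all genes were higher by these rules. The host gene Il6 in fat was at most 0.0633 CPM in the 4 no tumor libraries and at 2.02 to 5.30 CPM in KPC. In KPC IL6KO it split into 4.66 and 4.77 CPM in libraries 5 and 8 and 0.0343 and 0.267 CPM in libraries 6 and 7, while the class II sum was lowest in library 6 and highest in library 7.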
